A study of Mus musculus with 3 samples.

Results

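The small leucine-rich proteoglycans are secreted matrix proteins, and 7 of their genes are described here in lung: Dcn (decorin), Lum (lumican), Bgn (biglycan), Fmod (fibromodulin), Ogn (osteoglycin, also called mimecan), Prelp (proline and arginine rich end leucine rich repeat protein) and Aspn (asporin). They were chosen by symbol, and all 7 had a value in each library among the 23183 genes listed. RNA of lung homogenates from female BALB/c mice was sequenced in 3 libraries, 1 for each of 3 groups. Mice of the OVA+PM10 library received particulate matter of the PM10 size class (ERMCZ-120, a certified dust, in saline) into the nose 4 times within 2 weeks. They were also sensitised to 20 µg of ovalbumin (OVA), an egg-white protein, with aluminium hydroxide. These mice were then challenged with OVA through the nose on days 21, 22 and 23, and killed 2 days after the last challenge. The PM10 library came from mice given the particles without OVA, and the control library from mice labelled control, for which no vehicle is named. One label puts the mice at 10 weeks of age, and the growth protocol at 5 to 6 weeks. Each group had 5 mice, but it is not said how many of them a library represents. The protocol names 100 µg and 200 µg of particles without assigning either dose to a library. A library of mice given OVA alone was not analysed here, so what OVA and what the particles contributed to OVA+PM10 cannot be told apart.

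Each of these proteins has a core of leucine-rich repeats that binds collagen fibrils, and most carry glycosaminoglycan chains. Decorin, biglycan and asporin belong to class I of the family and lumican, fibromodulin and PRELP to class II, while osteoglycin belongs to class III. Decorin and lumican are made mainly by fibroblasts and set the diameter and spacing of collagen fibrils. Biglycan is also made by vascular cells, and in soluble form it is a ligand of Toll-like receptors. Asporin and decorin both bind transforming growth factor beta.

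Values were FPKM (fragments per kilobase of transcript and per 1000000 mapped), and a difference between libraries was taken as the log2 ratio of FPKM + 1. A gene was counted as higher or lower when it differed at least 2-fold on that scale and reached 1 FPKM in one of the libraries. With 1 library per group there was no test, no p-value and no error, and every ratio compares libraries and not conditions. In a homogenate, fewer cells of a type and less RNA per cell cannot be told apart. The steps between the lowest values corresponded to about 15200000 reads in OVA+PM10, 13200000 in PM10 and 20000000 in control. Lung markers were abundant throughout, with the surfactant gene Sftpc at 24439, 56646 and 22645 FPKM in OVA+PM10, PM10 and control. Over all genes tested, the median log2 ratio to control was -0.00 in OVA+PM10 and 0.02 in PM10, and that of OVA+PM10 to PM10 was -0.03.

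The genes lie in 3 clusters and at 1 separate site of the mouse genome (GENCODE M21 on GRCm38, the assembly of mm10). Dcn (97479609 to 97518143, plus strand) and Lum (97565128 to 97572703, plus strand) are neighbours on chromosome 10, followed by their relatives Kera and Epyc. Aspn (49544443 to 49567565, plus strand) and Ogn (49608046 to 49624501, plus strand) lie on chromosome 13 with Ecm2 and Omd, inside the span of Cenpp, a centromere gene on the opposite strand. How strand was used in counting is unknown, so reads of Cenpp (2.59, 1.13 and 0.771 FPKM in the OVA+PM10, PM10 and control libraries) cannot be told apart from theirs. Prelp (133910304 to 133921414, minus strand) and Fmod (134037254 to 134048277, plus strand) lie on chromosome 1 beside Optc, and Bgn (73483602 to 73495933, plus strand) on chromosome X.

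The 250 bases before the annotated start are shown for Ogn and Prelp, the pair of the 7 genes with the most similar pattern over the libraries, for Aspn, the cluster neighbour of Ogn, and for Bgn, which was nearly level in OVA+PM10 and control. Sequences are from RefSeq (GRCm38.p6), which gave a promoter for 5 of the 7 genes, and are written 5′ to 3′ on the strand of the gene. The windows are chr13:49607765-49608014 on the plus strand for Ogn, chr1:133921402-133921651 on the minus strand for Prelp, chr13:49544193-49544442 on the plus strand for Aspn and chrX:73483351-73483600 on the plus strand for Bgn. Capitals mark matches on either strand to the TATA box motif TATAAA, to the Sp1 motif GGGCGG and to GCGTG, the core of the element bound by the aryl hydrocarbon receptor. They also mark the site of STAT6, in which TTC is followed after 4 bases of any kind by GAA. The AP-1 motif TGANTCA was searched as well.
Ogn: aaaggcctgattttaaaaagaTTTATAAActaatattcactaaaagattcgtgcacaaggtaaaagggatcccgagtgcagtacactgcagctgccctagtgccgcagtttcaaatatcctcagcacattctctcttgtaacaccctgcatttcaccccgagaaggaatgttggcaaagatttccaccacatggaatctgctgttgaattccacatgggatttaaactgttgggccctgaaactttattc
Prelp: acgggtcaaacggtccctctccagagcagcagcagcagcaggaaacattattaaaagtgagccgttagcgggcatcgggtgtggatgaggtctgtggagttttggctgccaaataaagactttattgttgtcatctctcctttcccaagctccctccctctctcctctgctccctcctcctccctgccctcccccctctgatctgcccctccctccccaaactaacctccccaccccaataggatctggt
Aspn: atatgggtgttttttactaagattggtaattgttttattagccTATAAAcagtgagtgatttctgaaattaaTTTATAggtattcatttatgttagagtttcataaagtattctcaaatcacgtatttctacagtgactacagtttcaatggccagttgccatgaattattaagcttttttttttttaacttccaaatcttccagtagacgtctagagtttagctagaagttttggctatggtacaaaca
Bgn: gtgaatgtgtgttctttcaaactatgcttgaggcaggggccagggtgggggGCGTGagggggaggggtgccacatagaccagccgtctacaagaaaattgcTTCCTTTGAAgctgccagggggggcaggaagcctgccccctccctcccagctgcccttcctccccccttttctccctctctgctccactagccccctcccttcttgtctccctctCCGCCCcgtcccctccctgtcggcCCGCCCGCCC
Across 27025 promoters of the same length, 13% held TATAAA, 32.9% GGGCGG, 28.2% GCGTG, 5.86% the STAT6 site and 6.87% TGANTCA. Of the 5 promoters, those of Aspn and Ogn held TATAAA, beginning 178 and 207 bases before the RefSeq start in Aspn, and 227 and 229 bases before it in Ogn, where the 2 matches overlap. The Bgn promoter held GGGCGG on its minus strand 3 times, beginning 6, 10 and 34 bases before the start, the first 2 overlapping, and GCGTG and the STAT6 site once each. Prelp and Fmod held none of the 5 motifs. The GC content was 64.4% before Bgn, 55.6% before Prelp, 51.2% before Fmod, 42% before Ogn and 30% before Aspn. These matches describe the letters and do not show a bound site.

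Decorin and lumican stood far below control in the PM10 library, and the other 5 genes did not reach a 2-fold difference there. Dcn had 91.8 FPKM in OVA+PM10, 8.40 FPKM in PM10 and 246 FPKM in control. Lum had 5.22 FPKM in OVA+PM10, 1.38 FPKM in PM10 and 38.6 FPKM in control. Both genes were thus highest in control, intermediate with OVA and particles, and lowest with particles alone. Against control, the FPKM of Dcn was 29.3-fold lower in the PM10 library and that of Lum 27.9-fold lower, or log2 ratios of -4.72 and -4.05. In the OVA+PM10 library Dcn was 2.68-fold and Lum 7.39-fold lower than in control (log2 ratios of -1.42 and -2.67). Between the exposed libraries, Dcn was 10.9-fold and Lum 3.78-fold higher in OVA+PM10 than in PM10. Lum has 1 annotated transcript, and its values correspond to roughly 195 reads in OVA+PM10, 44.6 in PM10 and 1890 in control. These read numbers are approximate, because the gene lengths used for the deposited values are not known.

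**Figure D1:**
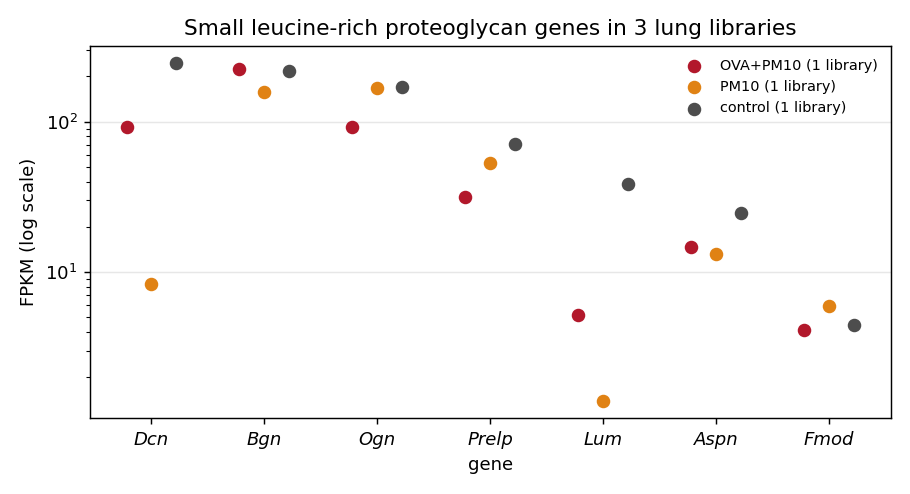
FPKM (vertical axis, log scale) of the 7 genes, ordered by their control level; each point is 1 library, with no error bar because each group has 1 library. Dcn and Lum are spread widely over the 3 libraries (8.40 to 246 FPKM and 1.38 to 38.6 FPKM), while Bgn, Ogn and Fmod lie close together.

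Among class I genes, Bgn and Aspn differed less than Dcn. Bgn had 224 FPKM in OVA+PM10, 157 FPKM in PM10 and 219 FPKM in control, with log2 ratios to control of 0.03 in OVA+PM10 and -0.47 in PM10. Of the 7 ratios of OVA+PM10 to control, that of Bgn was the closest to 0. Aspn had 14.7 FPKM in OVA+PM10, 13.1 FPKM in PM10 and 24.8 FPKM in control. Both exposed libraries were below control for Aspn, by log2 ratios of -0.72 in OVA+PM10 and -0.87 in PM10, within 2-fold. Among class II genes, Prelp, whose protein anchors basement membranes to connective tissue, had 31.4 FPKM in OVA+PM10, 53.3 FPKM in PM10 and 71.5 FPKM in control. Prelp was lower than control in OVA+PM10 (log2 ratio -1.16), and its lowest library was OVA+PM10 and not PM10, unlike Dcn and Lum. Fmod, which like lumican binds type I collagen, was the lowest of the 7 in control, with 4.09 FPKM in OVA+PM10, 5.92 FPKM in PM10 and 4.42 FPKM in control. Its log2 ratios to control were -0.09 and 0.35, in OVA+PM10 and PM10, and the positive sign turns with the scaling to equal sums given below. The class III gene Ogn had 92.7 FPKM in OVA+PM10, 167 FPKM in PM10 and 171 FPKM in control. As deposited, Ogn was therefore level between PM10 and control (log2 ratio -0.03) and below both in OVA+PM10 (-0.88 against control and -0.84 against PM10). With the libraries scaled to equal sums, as described below, Ogn stood at -1.27 in PM10 against control. It then stood at -1.52 in OVA+PM10 against control and at -0.25 against PM10.

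Counted over the family, 2 of 7 genes (Dcn and Lum) were at least 2-fold lower and none was higher in PM10 than in control, where 13.9% of 13693 genes tested were lower and 13.6% higher. In OVA+PM10 against control, 3 of 7 (Dcn, Lum and Prelp) were lower and none was higher, where 8.68% of 13877 genes were lower and 9.95% higher. In OVA+PM10 against PM10, 2 of 7 (Dcn and Lum) were higher and none was lower, where 11.8% of 13556 genes were higher and 9.00% lower. These shares over all genes also stand beside the counts of the gene lists below. Those at equal sums and after length correction are given in the next paragraphs. The comparisons with control share the control library, and each other pair shares a library as well. The median log2 ratio of the 7 genes to control was -0.88 in OVA+PM10, with values between -2.67 and 0.03, and -0.47 in PM10, with values between -4.72 and 0.35. Between OVA+PM10 and PM10 the median was 0.15, with values between -0.84 and 3.30. Among all genes tested, ranked from the lowest ratio, Dcn stood at number 86 and Lum at number 118 in PM10 against control, and at 590 and 191 in OVA+PM10 against control.

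**Figure D2:**
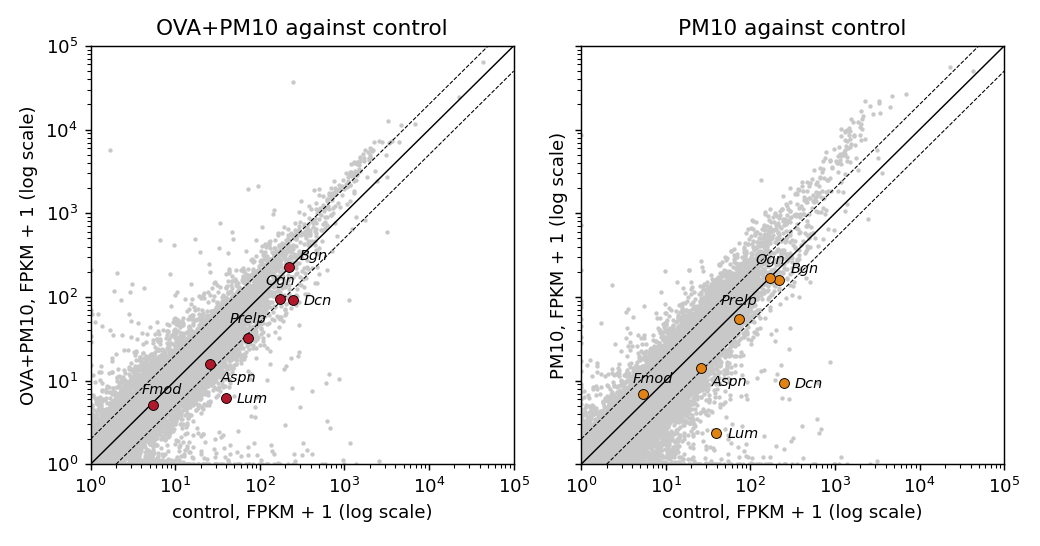
Each grey point is a gene, with FPKM + 1 in the control library on the horizontal axis and in an exposed library (OVA+PM10 on the left, PM10 on the right) on the vertical axis, both on log scales. The solid line marks equal values and the dashed lines a 2-fold difference; in the PM10 panel Dcn and Lum lie far below the lines and the other 5 genes within them, and in the OVA+PM10 panel Dcn, Lum and Prelp lie below.

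Scaling to an equal sum changes the position of the whole family. With median-ratio scaling, based on the median ratio over genes, the same members were called as with the deposited values. The median of the 7 genes was then -0.57 in PM10 and -0.90 in OVA+PM10 against control. The summed FPKM was 855739 in OVA+PM10, 1293180 in PM10 and 546315 in control, and scaling to an equal sum shifts ratios by -0.65 for OVA+PM10 against control and by -1.24 for PM10 against control. On that scale 51.8% of all genes were lower and 1.84% higher in PM10 than in control, with a median over all genes of -1.03, and 6 of 7 members were lower. For OVA+PM10 against control 24.5% were lower and 4.49% higher, with a median over all genes of -0.58, and 5 of 7 members were lower. For OVA+PM10 against PM10 24.7% were higher and 2.51% lower on that scale, and Bgn joined Dcn and Lum among the higher members at 1.10. Fmod was then at -0.70 and Bgn at -1.71 in PM10 against control, so that the sign of Fmod depends on the scaling. For Bgn in OVA+PM10 against control the sign depends on it as well (0.03 and -0.61). Of the gene lists described below, the median turned negative at equal sums for collagen partners (-0.36) and adventitial markers (-0.49) in OVA+PM10 against control, and for cartilage (-0.88) and macrophage markers (-0.78) in PM10 against control. Of the list genes at least 2-fold higher in PM10 than in control, Eln, Ly6a and Tcf21 turned to -0.13, -0.02 and -0.23.

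Ratios also followed transcript length. Split by the longest annotated transcript, genes of 121 to 1277 bases centred on a log2 ratio of 1.08 in PM10 against control, and genes of at least 6612 bases on -0.77. The longest annotated transcripts of the 7 genes lie between 2329 bases (Aspn) and 4692 bases (Dcn), where the running median was between -0.31 and 0.22. With this trend removed (called length correction below), Dcn stood at -4.39 and Lum at -4.26 in PM10 against control, and Aspn crossed the 2-fold limit at -1.07, so that 3 of 7 were lower, where 10.7% of all genes were lower and 7.68% higher. In OVA+PM10 against control, Ogn crossed it at -1.03 and Dcn, Lum and Prelp stood at -1.18, -2.86 and -1.12, so that 4 of 7 were lower, where 8.11% of all genes were lower and 7.23% higher.

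**Figure D3:**
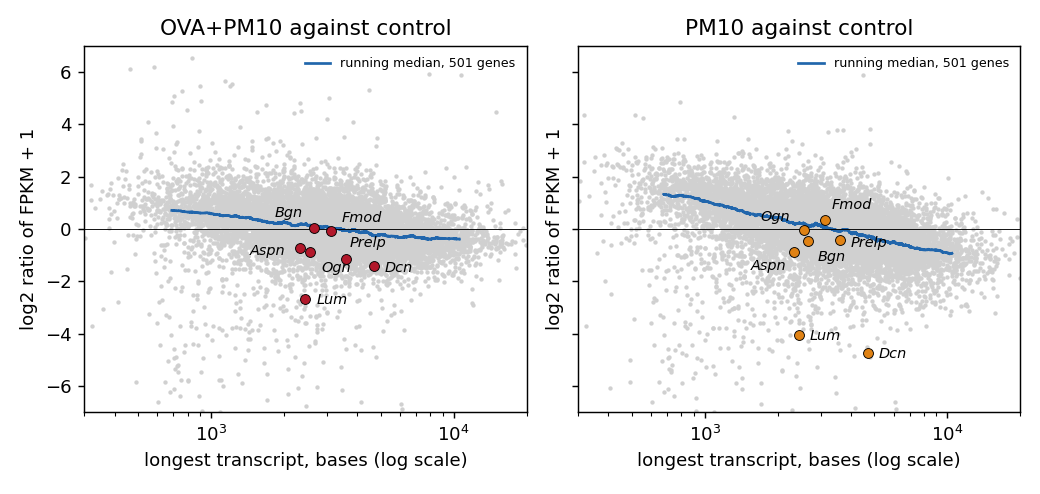
Log2 ratio of FPKM + 1 (vertical axis) against the longest annotated transcript in bases (horizontal axis, log scale) for OVA+PM10 (left) and PM10 (right) against control; grey points are genes with at least 1 FPKM in either library, and those beyond the axes are not drawn. The blue running median is lower for longer transcripts, and Dcn and Lum lie 4 or more units below it in the PM10 panel (-4.39 and -4.26 after its removal).

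The make-up of the family differed between libraries, a measure that does not depend on scaling. Dcn made up 19.8% of the summed FPKM of the 7 genes in OVA+PM10, 2.07% in PM10 and 31.8% in control. Lum made up 1.13%, 0.34% and 4.98% in the same libraries. Bgn held 48.3% in OVA+PM10, 38.7% in PM10 and 28.2% in control, and Ogn 20%, 41.1% and 22%. The most abundant member was Bgn in OVA+PM10, Ogn in PM10 and Dcn in control. The quotient of Dcn to Ogn was 0.99 in OVA+PM10, 0.0503 in PM10 and 1.44 in control, and that of Dcn to Lum was 17.6, 6.07 and 6.38. Dcn and Lum thus kept nearly the same proportion in PM10 and control, while Lum was relatively lower in OVA+PM10. The 7 genes summed to 463.6 FPKM in OVA+PM10, 406.6 FPKM in PM10 and 775.5 FPKM in control, or 0.0542%, 0.0314% and 0.142% of each library.

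Col1a1 and Col3a1, fibrillar collagen genes whose products these proteins bind, had another order of libraries than Dcn and Lum, while the less abundant fibrillar genes Col5a1 (6.38, 2.41 and 6.81 FPKM in OVA+PM10, PM10 and control) and Col5a3 (0.697, 0.231 and 1.18 FPKM) had the same order. Col1a1, a chain of type I collagen, had 134.7 FPKM in OVA+PM10, 13.1 FPKM in PM10 and 52.5 FPKM in control. Col3a1, the chain of type III collagen, had 243 FPKM in OVA+PM10, 60.7 FPKM in PM10 and 116 FPKM in control. Both collagens were thus highest with OVA and particles, where Dcn, Lum and Prelp were below control. Of 23 collagen and fibril-associated genes, 4 were higher (Col1a1, Col3a1, Fn1 and Eln) and 2 lower (Col12a1 and Tnxb) in OVA+PM10 than in control, with a median of 0.27. At equal sums the 4 stood at 0.71, 0.42, 0.39 and 0.43, so that none reached 2-fold, and after length correction the list had 5 higher and 0 lower. In PM10 against control 3 were higher (Eln, Mfap4 and Wisp2) and 7 lower, with a median of -0.40, and after length correction 3 higher and 4 lower. The lower ones included the type VI collagen chains Col6a1 (13.4 against 58.6 FPKM) and Col6a2 (11.3 against 51.6 FPKM) and the fibril-associated Col14a1 (2.97 against 13.6 FPKM). Expressed per Col1a1, Dcn stood at 0.681 in OVA+PM10, 0.643 in PM10 and 4.69 in control, so that both exposed libraries had a similar and lower quotient. The similarity was limited to Col1a1. Per Col1a2, Dcn stood at 0.626, 0.15 and 2.77 in the same libraries, and per Col3a1 at 0.377, 0.138 and 2.12. The quotient of Col1a2 to Col1a1 itself was 1.09, 4.29 and 1.7. Bgn per Col1a1 stood at 1.66 in OVA+PM10, 12.1 in PM10 and 4.17 in control, with the exposed libraries on either side of control. Per Col3a1, all 7 genes had a lower quotient in OVA+PM10 than in control. In PM10 only Dcn (0.138 against 2.12) and Lum (0.0228 against 0.333) were below control per Col3a1. Per Col1a2, Aspn was below control in PM10 as well (0.234 against 0.278). Per Pdgfra, a fibroblast marker, only Lum was lower in OVA+PM10 than in control (0.301 against 0.764), and Dcn stood at 5.29 against 4.88. In PM10, Dcn and Lum alone were lower per Pdgfra (0.381 and 0.0628, against 4.88 and 0.764 in control). None of these quotients was corrected for transcript length.

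**Figure D4:**
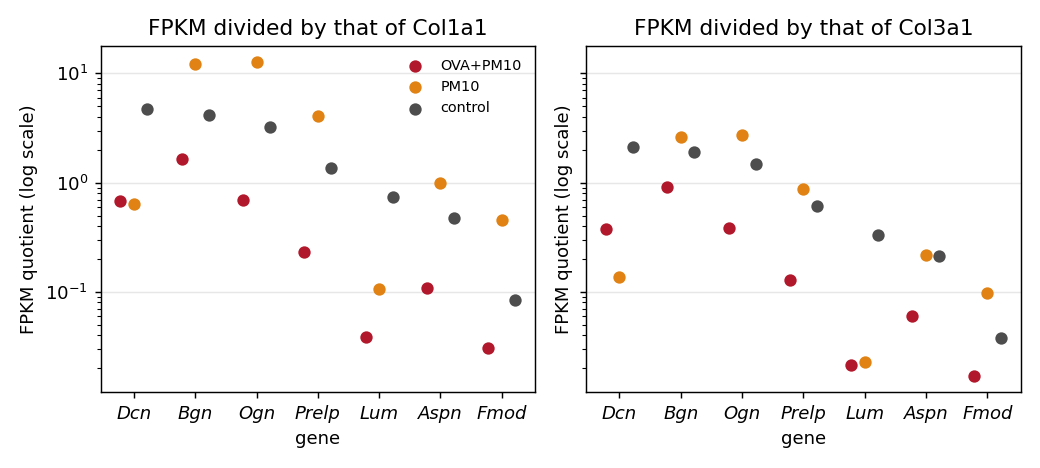
FPKM of each of the 7 genes divided by that of Col1a1 (left) or Col3a1 (right) in the same library, on a log scale; each point is 1 library. The OVA+PM10 points lie below the control points for all 7 genes with either collagen. The PM10 points lie below control for Dcn and Lum and at or above control for the other 5. The quotients were not corrected for transcript length.

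Other members of the family were mostly low. Of the 10 further genes listed, Chad (chondroadherin, a class IV protein of cartilage matrix) stood out with 112.9 FPKM in OVA+PM10, 9.41 FPKM in PM10 and 9.57 FPKM in control. Its log2 ratio to control was 3.43 in OVA+PM10. Of 16 cartilage markers, 2 (Col2a1 and Acan) were listed at 0 in OVA+PM10, 7 in PM10 and 4 in control. A part of cartilage in the level of Chad was not tested. In the chromosome 13 cluster, Ecm2, a matrix protein next to Aspn, had 3.22 FPKM in OVA+PM10, 3.87 FPKM in PM10 and 10.7 FPKM in control, and was lower in both exposed libraries. Omd (osteomodulin), between Aspn and Ogn, had 2.25 FPKM in OVA+PM10, 7.93 FPKM in PM10 and 3.16 FPKM in control, and was higher in PM10 than in control (log2 ratio 1.10, or 0.07 at equal sums). The 4 genes of that cluster thus had 3 different orders over the libraries. On chromosome 10, Kera (keratocan) and Epyc (epiphycan) were listed at 0 in both exposed libraries and at 0.05 and 0.77 FPKM in control. Beside Bgn, Haus7 had 18.0, 20.4 and 9.48 FPKM in OVA+PM10, PM10 and control, and Trex2, the next gene beyond it, 0.22 FPKM in OVA+PM10, 0 in PM10 and 15.0 FPKM in control. Of the genes before Dcn on that chromosome, the nearest was Btg1, which ends at 96622809. Btg1 had 28.9 FPKM in OVA+PM10, 72.6 FPKM in PM10 and 24.7 FPKM in control, and was highest in PM10, where Dcn was lowest. Nudt4 (41.3, 49.9 and 37.2 FPKM) was also highest in PM10, while Eea1 (5.86, 4.47 and 11.6 FPKM) had the same order as Dcn. Podn (podocan, class V) had 3.58, 1.09 and 4.62 FPKM in OVA+PM10, PM10 and control, and was lower in PM10 (log2 ratio -1.43).

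Enzymes that build the glycosaminoglycan chains were mostly within 2-fold of control on the scale of the deposited values, as were most of all genes tested. Of 25 measured genes of this group in PM10 against control, 2 were lower (Chst15 and Ust) and none was higher, with a median of -0.30. Of 26 in OVA+PM10 against control, 3 were lower (Csgalnact1, Chst3 and Chst2) and none was higher, with the same median of -0.30. Over all genes tested, 13.9% were lower and 13.6% higher in PM10, and 8.68% lower and 9.95% higher in OVA+PM10. At equal sums 20 of the 25 were lower in PM10 and 11 of the 26 in OVA+PM10, and after length correction 1 was lower in each. Dse, an epimerase that forms dermatan sulfate, the chain type of decorin, had 9.46 FPKM in OVA+PM10, 8.98 FPKM in PM10 and 8.40 FPKM in control. Of 18 proteoglycans outside the family tested in PM10 against control, 2 were higher and 4 lower (median -0.57), and of 17 in OVA+PM10 against control 1 was higher and 4 lower (median -0.65). Length correction left 1 higher and 2 lower in PM10, and 0 higher and 3 lower in OVA+PM10. Srgn (serglycin), the proteoglycan of immune cell granules, was higher in both, with 286.5 FPKM in OVA+PM10, 350.3 FPKM in PM10 and 131.1 FPKM in control (log2 ratios at equal sums of 0.48 in OVA+PM10 and 0.17 in PM10). Spock2 (testican 2) was lower in both, with 16.6, 11.45 and 58.3 FPKM in OVA+PM10, PM10 and control.

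Of 24 receptors and growth factors that these proteins are known to bind or signal through, 3 were higher and 6 lower in PM10 than in control (median -0.53), and 2 of 23 were higher and 2 lower in OVA+PM10 (median -0.35). Length correction left 3 higher and 2 lower in PM10 (median -0.10), and 2 higher and 1 lower in OVA+PM10 (median -0.14). The gene Cd14, a coreceptor of Toll-like receptors, had 56.5 FPKM in OVA+PM10, 59.3 FPKM in PM10 and 15.0 FPKM in control, with log2 ratios at equal sums of 1.23 in OVA+PM10 and 0.72 in PM10. The biglycan receptors Tlr2 and Tlr4 stayed within 2-fold as deposited, at 9.42 and 9.79 FPKM in OVA+PM10, 11.5 and 5.41 FPKM in PM10, and 10.4 and 8.81 FPKM in control. At equal sums their log2 ratios to control were -1.02 and -1.72 in PM10, beyond 2-fold, and -0.74 and -0.46 in OVA+PM10. P2rx4, a purinergic receptor, was higher in both exposed libraries (48.2, 47.4 and 15.2 FPKM in OVA+PM10, PM10 and control), and at equal sums, with log2 ratios of 0.99 in OVA+PM10 and 0.38 in PM10, it reached 2-fold in neither. Tgfb1, the growth factor that decorin binds, had 44.4 FPKM in OVA+PM10, 17.2 FPKM in PM10 and 38.0 FPKM in control, and was lower in PM10 (log2 ratio -1.10).

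Fibroblast markers went in several directions. Of 18 adventitial fibroblast markers, 8 were lower and 3 higher in PM10 than in control (median -0.50), and 2 were lower and 1 higher in OVA+PM10 (median 0.13). Summed, the 20 listed genes had 3099 FPKM in OVA+PM10, 3918 FPKM in PM10 and 1910 FPKM in control. The 3 higher in PM10 were Ly6a, Lgals1 and Mgp, and Lgals1 alone had 1046, 1053 and 294 FPKM in these libraries. In PM10 the sum was thus above control while the median ratio was negative. The markers of this list with the largest ratios in PM10 were Ccl11 (eotaxin) and Adh7 (an alcohol dehydrogenase), both at -3.80. Ccl11 had 95.2 FPKM in OVA+PM10, 2.67 FPKM in PM10 and 50.0 FPKM in control, and Adh7 had 11.3, 0.145 and 14.9 FPKM. Pi16, a marker of adventitial fibroblasts, had 21.0 FPKM in OVA+PM10, 2.13 FPKM in PM10 and 18.1 FPKM in control, and Fbln1 (fibulin 1) 9.47, 2.13 and 18.2 FPKM. Other markers of the same list were within 2-fold, among them Clec3b (76.6, 82.5 and 85.7 FPKM), Mfap5 (16.8, 14.0 and 16.1 FPKM) and Dpt (66.7, 81.6 and 109.8 FPKM), a set picked after their values were seen. With the length trend removed, Ccl11 stood at -4.76, Adh7 at -3.75, Clec3b at -1.13, Dpt at -0.93 and Mfap5 at -0.38 in PM10 against control. The list then had 9 lower and 0 higher in PM10 (median -1.03), and 1 lower and 1 higher in OVA+PM10 (median -0.09). Of 18 alveolar fibroblast markers, 4 were lower and 4 higher in PM10 (median -0.50), and 10 were lower and 1 higher in OVA+PM10 (median -1.13). After length correction 1 was lower and 1 higher in PM10 (median -0.26), and 10 were lower and 1 higher in OVA+PM10 (median -1.06). The list summed to 1670, 6029 and 2851 FPKM in OVA+PM10, PM10 and control, most of it in PM10 and control from Inmt, a methyltransferase with 827, 4513 and 1771 FPKM, so that in PM10 the sum was above control while the median ratio was negative. Pdgfra, the growth factor receptor of these cells, had 17.3 FPKM in OVA+PM10, 22.0 FPKM in PM10 and 50.5 FPKM in control. Of 19 smooth muscle and pericyte markers, 9 were lower and 1 higher in PM10 (median -0.99), and 6 were lower and 1 higher in OVA+PM10 (median -0.06), and after length correction 9 were lower in PM10 (median -0.53) and 4 in OVA+PM10. Their sums were 1058, 703.9 and 914.9 FPKM in OVA+PM10, PM10 and control, and none of these fibroblast and muscle wall markers was at 0 in a library. The part of these cell types in the ratios of the 7 genes was not tested.

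Markers of squamous epithelium and skeletal muscle were high in the control library. All 11 tested markers of stratified squamous epithelium and all 15 of skeletal muscle were lower in both exposed libraries. Summed FPKM of the squamous list was 2.60 in OVA+PM10, 1.41 in PM10 and 4881 in control, and that of the skeletal muscle list 46.4, 32.3 and 5290. In PM10, 8 squamous markers (among them Krt13, Krt5 and Krt14) and 4 muscle markers (Acta1, Myh4, Tnnc2 and Myot) were listed at 0, and in OVA+PM10 4 (Krt6a, Sprr3, Crnn and Dsg3) and 5 (Myh1, Myh2, Myh4, Tnnc2 and Myot). Their part in the levels of Dcn and Lum in control was not tested. The sum of the adipocyte markers had the same order of libraries as Dcn, with 227.9 FPKM in OVA+PM10, 91.97 FPKM in PM10 and 511.8 FPKM in control. The sums of the squamous, skeletal muscle and cardiac muscle lists had that order as well. Of the adipocyte markers, 9 of 11 were lower in PM10 and 6 of 11 in OVA+PM10. Not every adipocyte gene had the order of the sum. Cidec (4.36, 7.23 and 15.7 FPKM in OVA+PM10, PM10 and control) and Lipe (7.33, 14.1 and 19.6 FPKM) were lowest in OVA+PM10, and Cidea (7.91, 1.28 and 4.40 FPKM) was highest there. Adipoq (adiponectin) had 4.44, 0.531 and 11.6 FPKM in OVA+PM10, PM10 and control, and Plin1 (perilipin 1) was listed at 0 in PM10. Of 9 tested cardiac muscle markers, 6 were lower in PM10 and 3 in OVA+PM10, with sums of 373.9, 187.5 and 640.1 FPKM and no marker at 0. Of 6 tested mesothelial markers, 4 were lower in each exposed library, with Msln (mesothelin) at 4.13, 3.71 and 17.5 FPKM and Upk3b, Wt1 and Bnc1 listed at 0 in OVA+PM10. Summed over the mesothelial list the levels were 282.2, 200.9 and 211.2 FPKM in OVA+PM10, PM10 and control, most of it from Krt19, a keratin that other epithelia share, with 274.5, 192.6 and 159.6 FPKM. Their part was not tested.

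The defining cartilage genes were at or near 0, and Cytl1 (25.6, 56.5 and 44.4 FPKM in OVA+PM10, PM10 and control) and Matn4 (6.87, 20.9 and 15.9 FPKM) made up most of the list's sum. Of 16 listed in the table, 3 were tested in PM10 and none differed 2-fold, while 1 of 4 (Matn4) was lower in OVA+PM10, with sums of 36.5, 79.6 and 63.2 FPKM in OVA+PM10, PM10 and control. Besides Acan, at 0 throughout, Col2a1 was at 0 in both exposed libraries, and Matn1, Col9a1 and Ucma were at 0 in PM10 and control. Of the tendon markers, 2 of 5 were lower in PM10 (Thbs4 and Cilp) and 1 of 4 in OVA+PM10 (Scx), with sums of 16.1, 20.3 and 23.8 FPKM in OVA+PM10, PM10 and control and Tnmd and Kera at 0 in both exposed libraries. Macrophage markers were higher in 3 of 14 cases in PM10 and in 6 of 14 in OVA+PM10, where 1 (Marco) was lower, with sums of 6099, 5994 and 3716 FPKM in OVA+PM10, PM10 and control. Of these sums, Chil3 alone had 2106, 641 and 93.4 FPKM. Over all genes tested, 13.6% were higher in PM10 and 9.95% in OVA+PM10. The median ratio of the list was 0.42 in PM10 and 0.91 in OVA+PM10, and 0.04 and 1.12 after length correction.

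**Figure D5:**
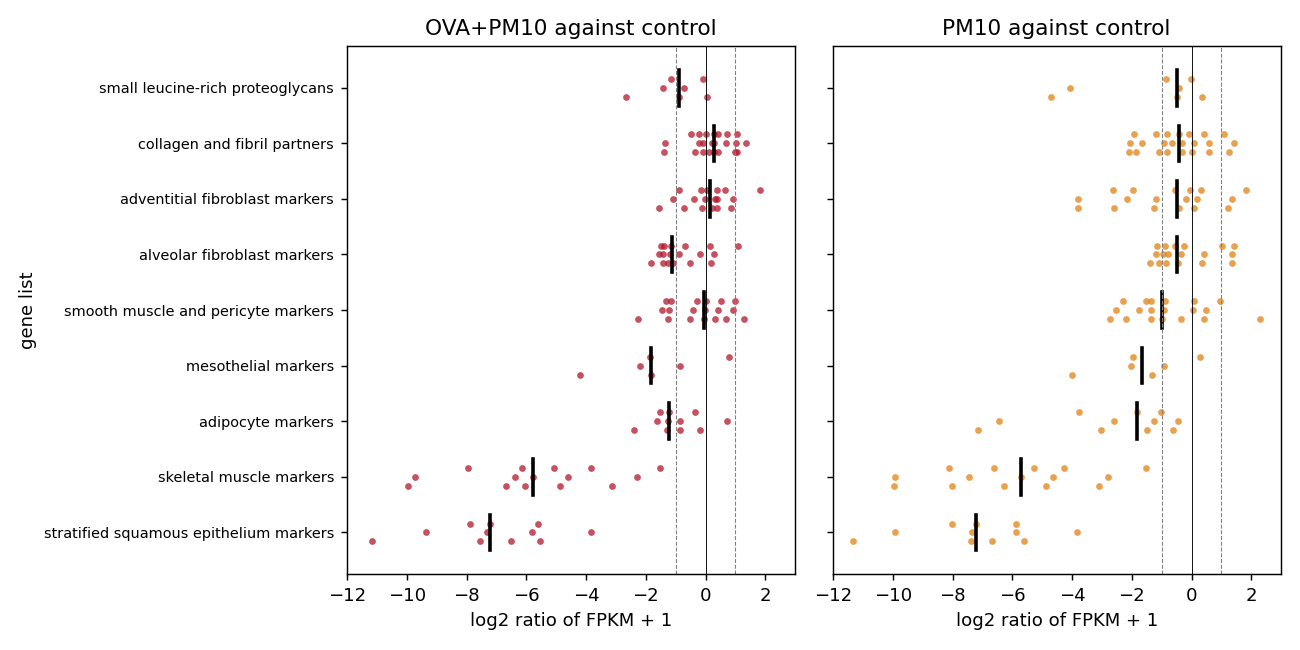
Log2 ratio of FPKM + 1 to control (horizontal axis) in OVA+PM10 (left) and PM10 (right) for genes of 9 lists with at least 1 FPKM in either library; each point is a gene, its height within a row has no meaning, the black bar is the median and the dashed lines mark 2-fold. Dcn and Lum are the 2 lowest points of the top row on the right (-4.72 and -4.05), and the skeletal muscle and squamous lists lie far to the left in both panels.

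The genes most like each member over the 3 libraries were listed by distance. Likeness was the Euclidean distance between log2(FPKM + 1) profiles over the 3 libraries, after subtraction of the mean of each gene, among 10029 genes outside the family with at least 5 FPKM in their highest library. Genes with large ratios have few others near them on this measure, so distances are not compared between members. Nearest to Dcn were Cyyr1 (distance 0.611), Glg1 (0.729) and Spred2 (0.755). Cyyr1 had 15.3 FPKM in OVA+PM10, 2.01 FPKM in PM10 and 59.0 FPKM in control. Nearest to Lum were Hspb6 (0.195), Klk10 (0.413) and then Fitm1. Hspb6, a small heat shock protein of muscle, had 5.55 FPKM in OVA+PM10, 1.64 FPKM in PM10 and 49.1 FPKM in control. Nearest to Bgn were Gspt1, Mrps5 and Hs6st1, to Aspn Casz1, Col16a1 and Rnf44, and to Fmod Cyp51, Gpsm2 and Pex3, all at distances between 0.003 and 0.012. These are a few of many, since 724 genes lay within 0.25 of Bgn, 441 of Aspn and 1101 of Fmod. Nearest to Ogn were Rftn2, Gadd45b and Gcnt2, and to Prelp Daam1, Ccdc82 and Map6, at distances between 0.020 and 0.040. Within the family the closest pair was Ogn and Prelp (0.283), but many genes outside the family lay closer to either. Within a distance of 0.25 there were 242 such genes for Ogn and 181 for Prelp. Dcn and Lum lay 1.378 apart but at least 2.271 from every other member.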

How the data were processed

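RNA from mouse lung homogenates was extracted with Trizol, and 1.3 µg per library was sequenced after a strand-preserving preparation, per the labels' protocols. The deposited values are FPKM for 23183 genes in each of 3 libraries (OVA+PM10, PM10 and control, 1 each). The unit was inferred from the values, since no header names it: low values times transcript length cluster at the worth of 1 read (65.6, 75.9 and 50 FPKM times bases in OVA+PM10, PM10 and control). TopHat and mm10 are named in the submitters' processing notes. The counting program, the annotation and the strand setting were not given in the sources used here. Values were taken as deposited. A pseudocount of 1 FPKM was added before each log2 ratio, which makes differences of low genes look smaller, and a call needed a 2-fold difference and 1 FPKM in the higher library. Transcript lengths and positions came from GENCODE M21, matched by symbol for 22156 genes (95.6%). The length trend was a running median over 501 genes. The planned comparison of protein sequences was not made, and the promoters of Dcn and Lum are not shown. Because each group has 1 library, no test was possible, and depth limits low values: 1 read in a transcript of 1 kilobase is worth 0.0656, 0.0759 and 0.05 FPKM in OVA+PM10, PM10 and control.

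The members and gene lists were chosen with earlier results of these data known. Named genes were the 7 members, the other measured family members, up to 4 genes per list with the largest absolute ratio in each comparison with control among those reaching 5 FPKM, Col1a1, Col1a2, Col3a1 and Pdgfra, chromosome neighbours, and the 3 genes nearest in pattern to each member. Genes named outside this rule were picked with their values known. They were members of small counts, markers listed at 0, and Dse, Tlr2, Tlr4, Tgfb1, Col5a1, Col5a3, Krt19, Clec3b, Mfap5, Dpt and Cidea. Some lists share genes (Kera, Acan and Mfap4, for example). The alternatives were pseudocounts of 0.25 and 5 FPKM, equal sums of 1000000 FPKM, median-ratio scaling, removal of the length trend, no filter or one at 5 FPKM, and thresholds of 1.5-fold and 4-fold. The code was tested on simulated data. Python 3.11.15, pandas 2.3.3 and numpy 2.4.6 were used.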

Additional observations from a re-analysis of the deposited data

How the results depend on the processing

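Of the 105 ratios of single members under alternatives, 88 stayed within 1.5-fold of the reported value and none of the ratios of at least 2-fold changed sign. Of the 17 that moved more, 15 came from scaling to equal sums, and the other 2 were Lum with 5 FPKM added (0.68 for OVA+PM10 against PM10, and -2.77 with PM10 over control). Scaled to equal sums, 6 of 7 members were lower in PM10 than in control (median -1.71) and 5 of 7 in OVA+PM10 than in control (median -1.52). At a 1.5-fold threshold 5 members were lower in OVA+PM10 than in control and 2 lower than in PM10, and at 4-fold 1 was lower than in control (Lum) and 1 higher than in PM10 (Dcn). With 5 FPKM added, 1 member (Dcn) was higher in OVA+PM10 than in PM10. With the length trend removed, 3 members were lower in PM10 than in control and 4 in OVA+PM10 than in control, and counts over all genes were 1464 lower and 1052 higher in PM10 in place of 1907 and 1869, and 1125 (8.11%) lower and 1004 (7.23%) higher in OVA+PM10 in place of 1204 and 1381. Over all genes, PM10 against control gave 7392 lower and 262 higher at equal sums, 749 and 1267 with 5 FPKM added, 525 and 303 at 4-fold, and 3490 and 3606 at 1.5-fold. OVA+PM10 against control gave 3560 and 652 at equal sums, 524 and 694 with 5 FPKM added, 276 and 207 at 4-fold, and 2451 and 2853 at 1.5-fold, in place of 1204 and 1381. OVA+PM10 against PM10 gave 341 and 3354 at equal sums, 668 and 476 with 5 FPKM added, 111 and 290 at 4-fold, and 3046 and 3078 at 1.5-fold, in place of 1220 and 1604, and a filter of 5 FPKM left 1064 and 1013. The cause of these moves was not tested. No paired analysis was possible because each group has 1 library. With 1 library per group no replicate could be left out, and the difference between mice is unknown.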
